A study of Rattus norvegicus with 18 samples.

Results

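The proteasome genes described here are the rows of the deposited gene table whose symbol starts with Psm, followed by a letter from a to g and a digit. Of the 18923 genes in the table, 50 matched, and 48 of them reached an FPKM of 1 in 3 or more of the 9 libraries and were tested. FPKM counts sequenced fragments scaled by library depth and transcript length, and so estimates RNA level per unit of length. Psma8, the alpha subunit of the testis proteasome, and Psmb11, the beta subunit of the thymus proteasome, failed the filter, with highest values of 0.0405 and 0.162 FPKM in any library. Of the 48 tested genes, 46 encode subunits, activators, an inhibitor or assembly factors of the proteasome. The other two, Psmc3ip and Psme3ip1, match the symbol pattern but encode proteins named for binding a subunit or an activator.

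The proteasome is the protease that degrades proteins marked with ubiquitin. Its barrel-shaped core is built from rings of alpha subunits (Psma), which gate the entry, and beta subunits (Psmb), of which Psmb5, Psmb6 and Psmb7 carry the active sites. Interferon and inflammatory signals can replace these by Psmb8, Psmb9 and Psmb10, which gives the immunoproteasome, and a cap of ATPases (Psmc) and non-ATPase subunits (Psmd) or an activator (Psme) can dock on the ends of the core.

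The study profiled the nucleus pulposus, the gel-like centre of the intervertebral disc, in rats of 3 ages by RNA sequencing with and without immunoprecipitation of methylated RNA. Its groups are rats aged 2 months, 10 months and 20 months, with 3 libraries of each kind per age and 18 libraries in all. The values used here come from the 9 libraries without immunoprecipitation, which report how abundant each RNA is, while the immunoprecipitated libraries are not analysed here. The sources used here give neither strain nor sex, nor whether each replicate is its own animal, so a p-value covers the spread between libraries alone, which may be technical.

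The libraries held an estimated 3.53 to 5.04 gigabases of alignments, from the ratio of read coverage (mean reads over a base) to FPKM. Pearson's r between replicates, across genes on the log2 scale, lay between 0.984 and 0.993. Nucleus pulposus markers such as Krt19, Krt8, Cd24 and Tbxt were abundant at every age, and 9 listed markers summed to 25780 to 30930 FPKM in the 9 libraries. The 20-month libraries stood apart as a set. Their read length, estimated as the commonest product of a transcript's coverage and length between 100 and 200 bases, was 141 bases. The same estimate was 132 in every 2- and 10-month library. In the 2-, 10- and 20-month libraries, ribosomal protein genes took 13.98 to 14.4, 16.4 to 16.6 and 20.4 to 21.0% of the summed FPKM, and mitochondrial genes 0.456 to 0.563, 0.561 to 0.690 and 0.0868 to 0.111%. Whatever set these libraries apart cannot be told apart from age in any comparison with 20 months. The median gene was shifted by -0.20 (20 against 2 months) and -0.23 (20 against 10 months) on the log2 scale, and by 0.04 for 10 against 2 months. Changes were therefore also tested after median-of-ratios scaling, which brings the median gene to 0, and a member is named as changed at 20 months without further remark only where both scalings call it in the same direction. A call is an adjusted p under 0.05 in limma over all 11708 genes tested. In bulk tissue, fewer cells of a type and less RNA per cell cannot be told apart.

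Members that take part in the interferon-inducible forms (Psmb8, Psmb9 and Psme1) were higher at 10 months and at 20 months than at 2 months, while their partners Psmb10 and Psme2 were not called higher in any comparison. The standard core subunits moved in both directions at 20 months, with Psmb6 and Psmb4 among those higher and Psmb5, Psmb7 and Psmb2 among those lower than at 2 months.

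At 10 months against 2 months, 5 of the 48 members were called higher and 3 lower, against 19.0% and 11.4% of all genes tested. After median-of-ratios scaling 4 were higher and 6 lower, against 15.1% and 14.5% of all genes. Under both scalings 4 were called higher (Psmb8, Psmb9, Psme1 and Psme4) and 3 lower (Psmb7, Psmd14 and Psmg2), beside 15.1% and 11.4% of all genes. At 20 months against 2 months, 11 members were called higher and 22 lower as deposited, where 18.6% and 49.6% of all genes were called, and 22 higher and 11 lower after scaling, where 31.0% and 31.3% were. Both scalings called 11 members in each direction, beside 18.6% of all genes higher and 31.3% lower. At 20 months against 10 months the counts were 8 higher and 21 lower as deposited (all genes 11.4% and 53.3%) and 25 higher and 4 lower after scaling (all genes 26.7% and 25.8%). Both scalings called 8 members higher and 4 lower, beside 11.4% and 25.8% of all genes. The median log2 change of the 48 members was -0.03, -0.12 and -0.12 in these comparisons as deposited, against 0.04, -0.20 and -0.23 for all genes. After scaling it was -0.06, 0.10 and 0.14, against 0.01, -0.002 and -0.0003 for all genes. As deposited, an F test over the 3 ages called 33 of the 48 members (68.8%), and 75.4% of all genes, so the share that changed with age was near the background. After scaling it called 37 of the 48 members and 7849 of the 11708 genes. The members' share was thus below that of all genes as deposited and above it after scaling. The comparisons share libraries: those against 2 months use the same 2-month libraries, and those with 20 months the same 20-month libraries.

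**Figure D1:**
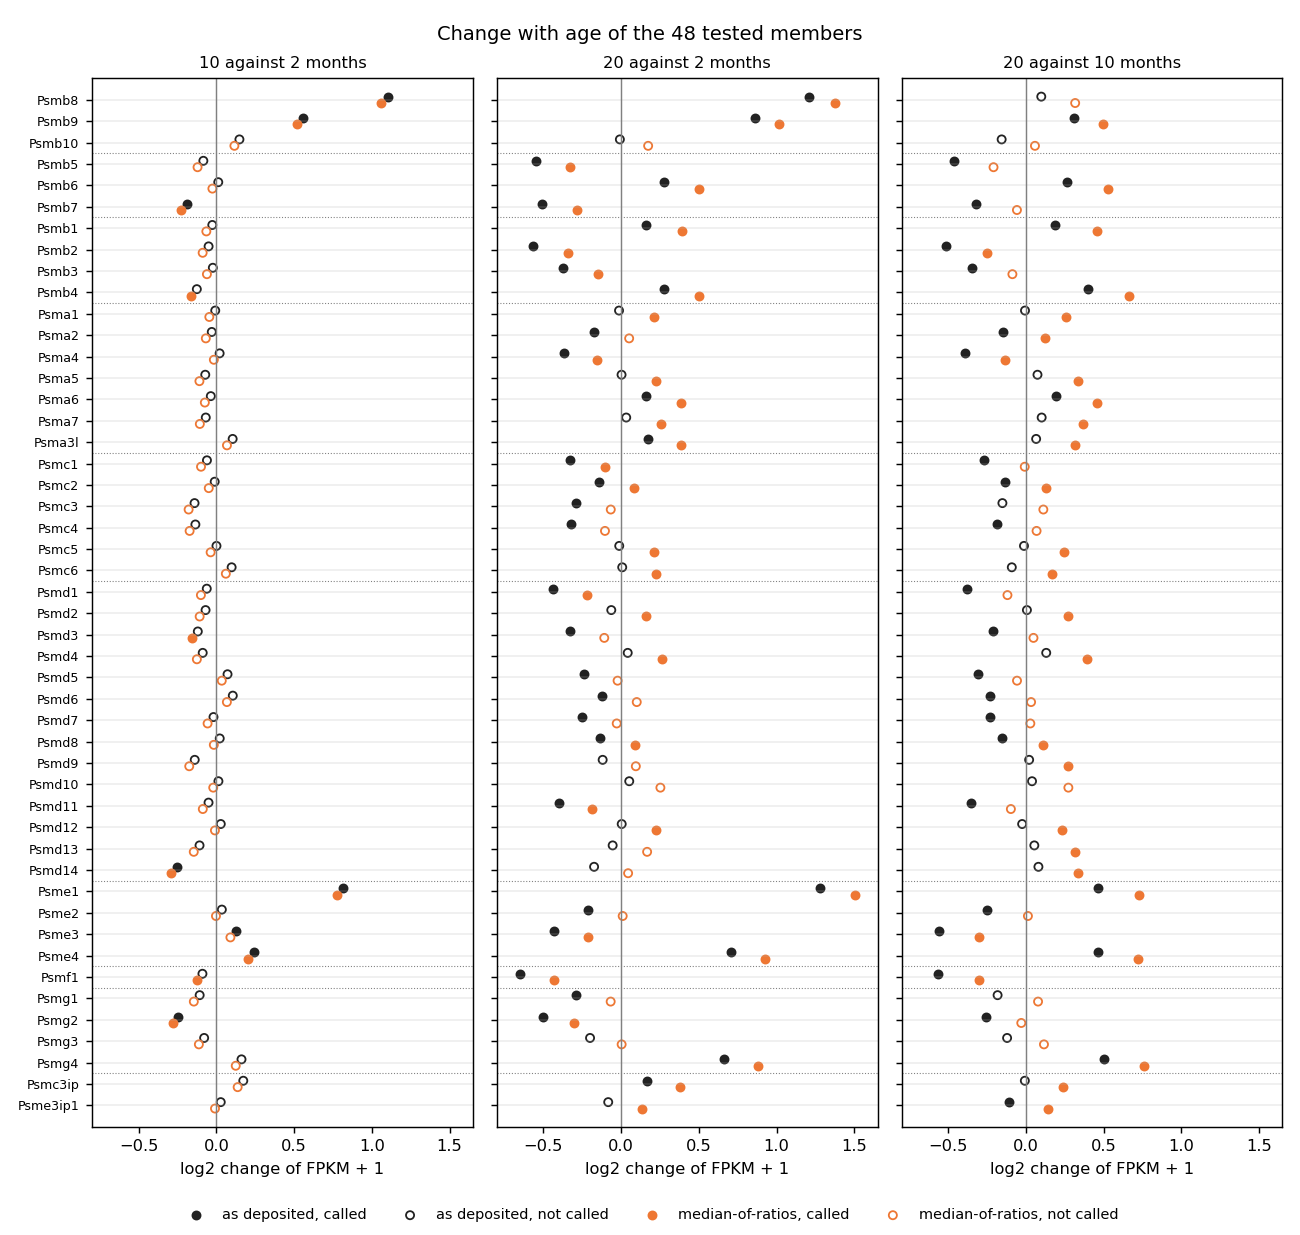
Log2 change of FPKM + 1 of the 48 tested members (rows, grouped by class with dotted lines between classes) in 3 age comparisons, as deposited (black) and after median-of-ratios scaling (orange), with filled points for an adjusted p under 0.05. Psmb8, Psmb9 and Psme1 lie farthest to the right in the comparison of 10 against 2 months, and the orange points of both panels with 20 months lie to the right of the black ones by about the shift of the median gene.

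The immunoproteasome subunits were present at low levels, and 2 of the 3 rose with age. Psmb8, the counterpart of Psmb5 with chymotrypsin-like activity, had 1.31, 1.48 and 1.33 FPKM at 2 months, 4.19, 4.30 and 3.85 FPKM at 10 months and 3.66, 5.54 and 4.37 FPKM at 20 months. Every library of 10 and 20 months lay above every 2-month library, while the 2 older ages overlapped. The log2 change was 1.11 ± 0.11 (SE) at 10 against 2 months (adjusted p = 0.000196) and 1.20 ± 0.11 at 20 against 2 months (adjusted p = 1.64e-05). At 20 against 10 months it was 0.10 ± 0.11 as deposited (adjusted p = 0.467). Median-of-ratios scaling gave 0.32 (adjusted p = 0.0514) and quantile normalization 0.34 (adjusted p = 0.0395), so that the call rests on the scaling. As a linear fold, 10-month libraries averaged 2.99 times and 20-month libraries 3.29 times the 2-month mean. Psmb9, the counterpart of Psmb6, had 1.03, 0.960 and 1.29 FPKM at 2 months, 1.85, 2.00 and 2.39 FPKM at 10 months and 2.82, 2.64 and 2.95 FPKM at 20 months. Its 3 ages did not overlap and followed the order of age. Psmb9 rose by 0.56 ± 0.09 at 10 against 2 months (adjusted p = 0.0024) and by 0.86 ± 0.09 at 20 against 2 months (adjusted p = 3.86e-05). The change of 0.31 ± 0.09 at 20 against 10 months (adjusted p = 0.0166) lost its call without 10-month replicate 1 (adjusted p = 0.0631) or replicate 2 (adjusted p = 0.0515). Psmb10, the counterpart of Psmb7 with trypsin-like activity, had 3.67, 3.68 and 3.96 FPKM at 2 months, 3.90, 4.70 and 4.29 FPKM at 10 months and 3.69, 3.96 and 3.58 FPKM at 20 months. The ages overlapped, and no comparison of Psmb10 passed the test (adjusted p = 0.146 at 10 against 2 months). Read coverage of these low genes, as the mean number of reads over a base, spanned 10.8 to 39.1 for Psmb8, 7.57 to 22.9 for Psmb9 and 13.0 to 22.3 for Psmb10, against at least 68.5 for any standard core subunit, which limits their precision.

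In the deposited tables Psmb9 (chromosome 20, 3973420 to 3978845, reverse strand) and Psmb8 (chromosome 20, 3990613 to 3993769, forward strand) lie on opposite strands with 11767 bases between them. Whether other genes lie in that gap was not examined. The sources used here do not name the build of these coordinates. Promoters of 43 of the 48 tested members, from 250 bases before to 50 after the RefSeq gene start, were read from RefSeq on build GRCr8 and searched on both strands for the interferon-stimulated response element as GAAANNGAAA, the gamma-activated site as TTCNNNGAA, the CCAAT box as CCAAT and the antioxidant response element core as TGACNNNGC. The promoters of Psmb8, Psmb9 and Psme1, the members with the clearest rise at 10 months, are shown with matches to these motifs in capitals.
Psmb8, chr20:4656982-4657281 (GRCr8, reverse strand): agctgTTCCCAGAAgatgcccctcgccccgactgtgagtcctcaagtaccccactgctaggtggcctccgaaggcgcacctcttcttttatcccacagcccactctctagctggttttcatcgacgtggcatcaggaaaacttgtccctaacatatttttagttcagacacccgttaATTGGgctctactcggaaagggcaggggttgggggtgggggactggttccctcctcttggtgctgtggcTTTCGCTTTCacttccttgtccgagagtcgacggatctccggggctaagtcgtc
Psmb9, chr20:4668750-4669049 (GRCr8, forward strand): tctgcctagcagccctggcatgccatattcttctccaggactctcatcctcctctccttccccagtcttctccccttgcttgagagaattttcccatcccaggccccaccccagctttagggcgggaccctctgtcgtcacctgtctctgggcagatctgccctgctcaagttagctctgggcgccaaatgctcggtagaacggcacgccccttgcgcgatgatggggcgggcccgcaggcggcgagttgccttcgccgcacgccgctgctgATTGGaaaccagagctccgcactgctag
Psme1, chr15:33038721-33039020 (GRCr8, forward strand): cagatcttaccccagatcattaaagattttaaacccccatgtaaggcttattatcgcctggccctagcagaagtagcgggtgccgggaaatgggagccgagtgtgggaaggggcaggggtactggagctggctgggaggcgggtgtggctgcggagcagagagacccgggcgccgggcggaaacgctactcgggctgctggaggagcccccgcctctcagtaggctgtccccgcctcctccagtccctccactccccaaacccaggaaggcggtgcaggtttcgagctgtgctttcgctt
The Psmb8 promoter held a gamma-activated site at -245, a CCAAT box in reverse at -73 and an interferon-stimulated response element in reverse at -4, counted in bases from the gene start to the first base of the match. The Psmb9 window held a CCAAT box in reverse at 23. No motif searched was found in the Psme1 window, which says only that these letters are not in it.

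The interferon-stimulated response element was found in 7 of the 43 promoters (16.3%), against 3.92% of all 33469 RefSeq promoters of the same length. Besides Psmb8 these were Psma4, Psmb3, Psmb10, Psmd7, Psme2 and Psmg4. Of the 7, Psmb8 alone was called higher at 10 against 2 months, beside 19.0% of all genes. The gamma-activated site was found in 4 of 43 (9.3%, against 8.87% of all promoters), and the CCAAT box, which overlapped none of these matches in Psmb8, in 22 (51.2%, against 37.5%). The antioxidant response element core was found in 7 (16.3%, against 12.1%), among them Psmb2, Psmb5, Psmb6 and Psme4. Windows of 10 bases either side of the response element (in capitals) are shown for the other immunoproteasome subunit and the activator subunit that carry it.
Psmb10, first match, chr19:50743346-50743375 (GRCr8, reverse strand): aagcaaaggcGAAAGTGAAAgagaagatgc
Psmb10, second match, chr19:50743290-50743319 (GRCr8, reverse strand): agtggggggtGAAAGCGAAAgtaggaagcg
Psme2, chr15:33052785-33052814 (GRCr8, reverse strand): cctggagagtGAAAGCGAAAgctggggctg
Psmb10 and Psme2, which carry the element, were not called at 10 against 2 months, and Psmb9 and Psme1, in whose windows it was not found, were. Whether the element plays a part in any of these changes was not tested.

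Among the standard catalytic subunits, Psmb6 rose and Psmb5 and Psmb7 fell at 20 months. Psmb5, which carries the chymotrypsin-like site, had 32.8, 34.0 and 31.3 FPKM at 2 months, 32.9, 30.3 and 29.2 FPKM at 10 months and 20.6, 26.1 and 19.8 FPKM at 20 months. All 20-month libraries lay below all others. The log2 change was -0.55 ± 0.09 at 20 against 2 months (adjusted p = 0.000667) and -0.33 after scaling (adjusted p = 0.0154), while at 20 against 10 months the change of -0.47 was -0.21 after scaling (adjusted p = 0.101). Psmb7, with the trypsin-like site, had 52.6, 56.8 and 54.8 FPKM at 2 months, 48.9, 46.7 and 47.9 FPKM at 10 months and 40.3, 39.1 and 35.2 FPKM at 20 months. As deposited, its ages did not overlap and ran downward with age. Psmb7 fell by 0.51 ± 0.05 at 20 against 2 months (adjusted p = 2.94e-05, and -0.28 after scaling with adjusted p = 0.000977). At 20 against 10 months its change of -0.32 was -0.06 after scaling (adjusted p = 0.361), so that this step rests on the scaling. The change of -0.19 ± 0.05 at 10 against 2 months (adjusted p = 0.0248) lost its call when any of 5 single libraries was left out, namely 2-month replicates 2 and 3 and each 10-month replicate, with adjusted p of 0.0501 to 0.0893. Psmb6, with the caspase-like site, had 38.8, 38.3 and 41.6 FPKM at 2 months, 39.1, 39.8 and 40.7 FPKM at 10 months and 49.96, 53.1 and 41.95 FPKM at 20 months. The lowest 20-month library lay just above the highest younger one. Psmb6 rose by 0.28 ± 0.08 at 20 against 2 months (adjusted p = 0.0104, and 0.50 after scaling).

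**Figure D2:**
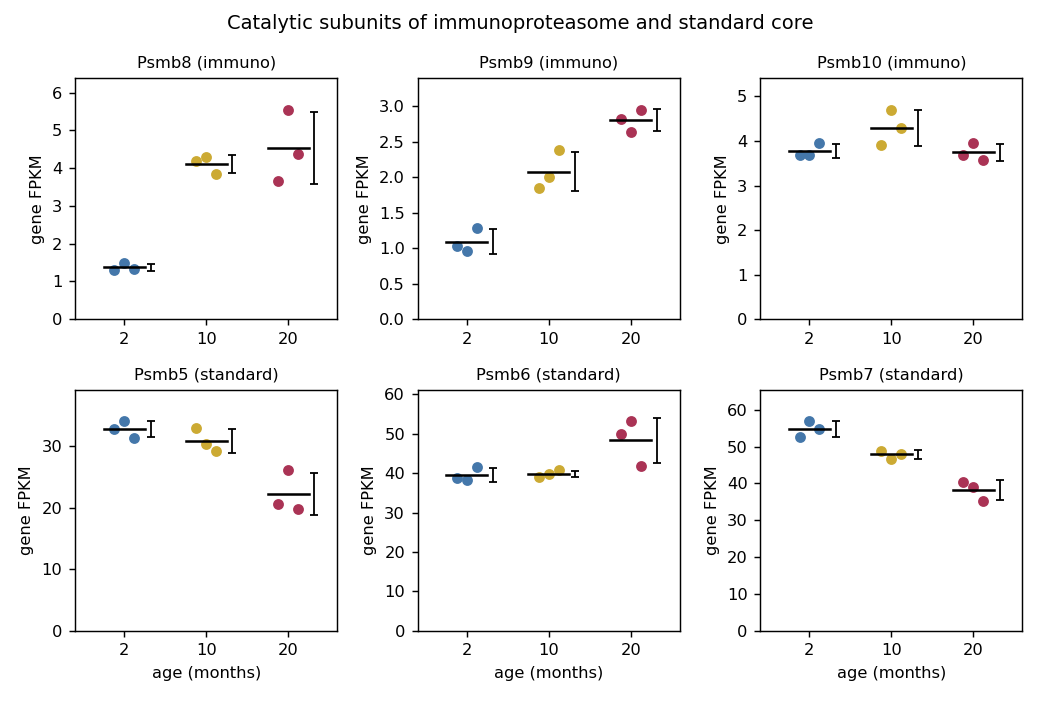
Gene FPKM of the 3 immunoproteasome subunits (top) and their standard counterparts (bottom) by age, with a point per library, a line at the mean and a bar of 1 SD (n = 3). Psmb8 and Psmb9 are higher in every 10- and 20-month library than in any 2-month library, and Psmb5 and Psmb7 are lowest at 20 months.

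A ratio of 2 genes within a library does not depend on the scaling between libraries. Such ratios used FPKM summed over a gene's transcripts, since the table's gene FPKM divides by a fixed gene length. Psmb8 stood at 7.32, 8.12 and 7.95% of Psmb5 at 2 months, at 22.8, 24.3 and 23.5% at 10 months and at 32.8, 39.0 and 40.6% at 20 months. The 3 ages did not overlap, with means of 7.79, 23.5 and 37.5%. On the transcript-summed scale of this ratio, Psmb8 averaged 8.33 ± 1.73 FPKM at 20 months and 7.24 ± 0.319 FPKM at 10 months, and Psmb5 22.2 ± 3.42 FPKM at 20 months and 30.8 ± 1.895 FPKM at 10 months (SD, n = 3 each). Psmb9 stood at 4.42, 4.15 and 5.25% of Psmb6 at 2 months, 7.89, 8.36 and 9.81% at 10 months and 9.36, 8.32 and 11.8% at 20 months. Here both older ages lay above 2 months and overlapped each other. Psmb10 stood at 3.70 ± 0.204% of Psmb7 at 2 months, 4.85 ± 0.554% at 10 months and 5.26 ± 0.294% at 20 months. At every age each immunoproteasome subunit was thus below its standard counterpart in RNA level per length.

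**Figure D3:**
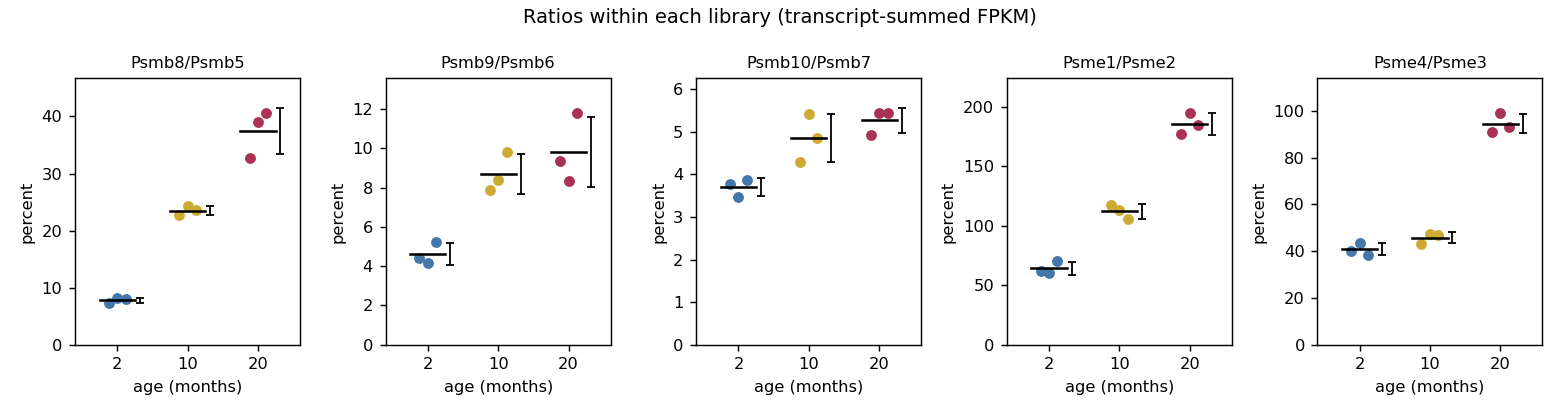
Ratios of 2 members within each library, in percent and from transcript-summed FPKM, by age, with a point per library, a line at the mean and a bar of 1 SD (n = 3). Psmb8 over Psmb5 and Psme1 over Psme2 separate all 3 ages, and Psme4 over Psme3 separates 20 months from both younger ages.

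Leukocytes also make the immunoproteasome, so their markers are given beside it. Of 16 listed leukocyte markers 14 were in the table, and they summed to 28.4 to 29.9 FPKM at 2 months, 30.2 to 31.6 FPKM at 10 months and 26.2 to 29.3 FPKM at 20 months. Ptprc, which encodes the surface protein of nearly all leukocytes, averaged 0.00641 FPKM at 2 months and was listed at 0 in every 10- and 20-month library. Of the 6 markers tested, 1 was called higher and 1 lower at 10 against 2 months, beside 19.0% and 11.4% of all genes. At 20 against 2 months 2 were higher and 2 lower, beside 18.6% and 49.6% of all genes. Csf1r, the receptor of a macrophage growth factor, was the one called higher at 10 against 2 months, by 0.69 on the log2 scale, and Cd74, the invariant chain of antigen-presenting cells, the one called lower, at -0.70. The 6 lymphocyte markers in the table summed to at most 0.323 FPKM in any library, and the 5 endothelial markers to at most 0.842 FPKM. Red blood cell markers summed to 82.9 to 93.2, 9.57 to 10.6 and 36.6 to 42.5 FPKM at 2, 10 and 20 months, and skeletal muscle markers spanned 3.75 to 202 FPKM among the 20-month libraries. Their part in the results was not tested.

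The activators diverged from each other with age. Psme1 and Psme2 encode the alpha and beta subunits of the PA28 ring, which interferon induces and which opens the core without ATP. Psme1 had 25.6, 23.7 and 27.2 FPKM at 2 months, 46.8, 45.4 and 44.5 FPKM at 10 months and 61.9, 62.7 and 65.1 FPKM at 20 months. The 3 ages were far apart compared with the spread within each. The log2 change was 0.81 ± 0.05 at 10 against 2 months (adjusted p = 2.3e-05), 1.28 ± 0.05 at 20 against 2 months (adjusted p = 1.29e-07) and 0.46 ± 0.05 at 20 against 10 months (adjusted p = 5.71e-05). As a linear fold of Psme1, 20-month libraries averaged 2.48 times the 2-month mean, against 3.29 times for Psmb8 and 2.56 times for Psmb9. Psme2, its partner in the ring, averaged 39.8 ± 1.27 FPKM at 2 months, 40.7 ± 1.21 FPKM at 10 months and 34.2 ± 1.66 FPKM at 20 months (SD, n = 3 each). The call of -0.21 at 20 against 2 months (adjusted p = 0.00235) was 0.01 after scaling (adjusted p = 0.861). As a ratio within libraries, Psme1 was 0.642 ± 0.055 times Psme2 at 2 months, 1.12 ± 0.06 times at 10 months and 1.85 ± 0.0885 times at 20 months. The genes lie 6609 bases apart on chromosome 15 (Psme1 at 34256071 to 34258947 on the forward strand, Psme2 at 34265557 to 34269851 on the reverse strand, in the tables' coordinates). Emc9 overlaps 2574 bases of Psme1 on the opposite strand and averaged 0.720, 1.16 and 1.23 FPKM at 2, 10 and 20 months. The sources used here do not say whether the counting used strand, so reads of such overlapping genes cannot be told apart, which also holds for Psmb7 with Nek6 (6.19, 5.58 and 4.10 FPKM at 2, 10 and 20 months).

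Psme3, whose product PA28-gamma forms a nuclear ring of its own, had 32.8, 31.4 and 33.5 FPKM at 2 months, 36.7, 35.6 and 34.7 FPKM at 10 months and 23.4, 23.6 and 24.6 FPKM at 20 months. Its 20-month libraries lay below all others. AC123346 overlaps 7784 bases of Psme3 on the same strand and averaged 0.410, 0.478 and 0.260 FPKM at 2, 10 and 20 months. Psme3 fell by 0.43 ± 0.04 at 20 against 2 months (adjusted p = 1.32e-05, and -0.21 after scaling with adjusted p = 0.00176) and by 0.56 ± 0.04 at 20 against 10 months (adjusted p = 5.99e-06). The change of 0.13 ± 0.04 at 10 against 2 months (adjusted p = 0.0372) was 0.09 after scaling (adjusted p = 0.136), and leaving out 2-month replicate 1 or 2 or any 10-month replicate gave adjusted p of 0.0503 to 0.133. Psme4 encodes PA200, a single large activator protein of the nucleus known for its link to histone degradation and DNA repair. Psme4 had 12.8, 13.1 and 12.9 FPKM at 2 months, 15.0, 15.9 and 15.6 FPKM at 10 months and 20.1, 22.4 and 22.9 FPKM at 20 months. The ages did not overlap. Psme4 rose by 0.24 ± 0.05 at 10 against 2 months (adjusted p = 0.00798), by 0.71 ± 0.05 at 20 against 2 months (adjusted p = 3.66e-06) and by 0.46 ± 0.05 at 20 against 10 months (adjusted p = 6.8e-05). The ratio of Psme4 to Psme3 was 0.408 ± 0.026 at 2 months, 0.458 ± 0.0238 at 10 months and 0.945 ± 0.0409 at 20 months, so that it separated 20 months from both younger ages.

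Psmf1 encodes PI31, a protein first described as an inhibitor of the core in the test tube. Psmf1 had 43.8, 41.6 and 43.2 FPKM at 2 months, 41.4, 39.3 and 40.0 FPKM at 10 months and 28.6, 26.7 and 25.5 FPKM at 20 months. The 20-month libraries stood well below the others. It fell by 0.65 ± 0.05 at 20 against 2 months (adjusted p = 2.85e-06) and by 0.56 ± 0.05 at 20 against 10 months (adjusted p = 1.31e-05), and after scaling by 0.43 and 0.30. Of the assembly chaperones that guide formation of the alpha ring, Psmg4 rose and Psmg2 fell. Psmg4 had 16.0, 13.8 and 15.9 FPKM at 2 months, 15.9, 19.8 and 15.9 FPKM at 10 months and 21.8, 25.8 and 26.6 FPKM at 20 months. Only the 20-month libraries stood apart from the rest. The log2 change was 0.66 ± 0.10 at 20 against 2 months (adjusted p = 0.000413) and 0.50 ± 0.10 at 20 against 10 months (adjusted p = 0.00244). Psmg2, which works as a pair with Psmg1, had 7.80, 8.20 and 8.02 FPKM at 2 months, 6.22, 6.56 and 7.04 FPKM at 10 months and 4.99, 5.93 and 5.17 FPKM at 20 months. As deposited, its ages did not overlap and ran downward with age. Psmg2 fell by 0.50 ± 0.07 at 20 against 2 months (adjusted p = 0.000158, and -0.31 after scaling with adjusted p = 0.00525). At 20 against 10 months its change of -0.26 was -0.03 after scaling (adjusted p = 0.756), so that this step rests on the scaling. At 10 against 2 months the change of -0.24 ± 0.07 (adjusted p = 0.0252) lost its call without any single 2-month replicate or without 10-month replicate 1 or 2 (adjusted p of 0.054 to 0.0901). Psmg1 had 41.4, 41.9 and 41.6 FPKM at 2 months, 38.0, 38.0 and 39.6 FPKM at 10 months and 39.8, 30.8 and 31.6 FPKM at 20 months. The 20-month libraries were spread widely, and the call of -0.29 at 20 against 2 months (adjusted p = 0.0117) was -0.07 after scaling (adjusted p = 0.458). Psmg3, the partner of Psmg4, was not called in any comparison as deposited or after scaling.

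**Figure D4:**
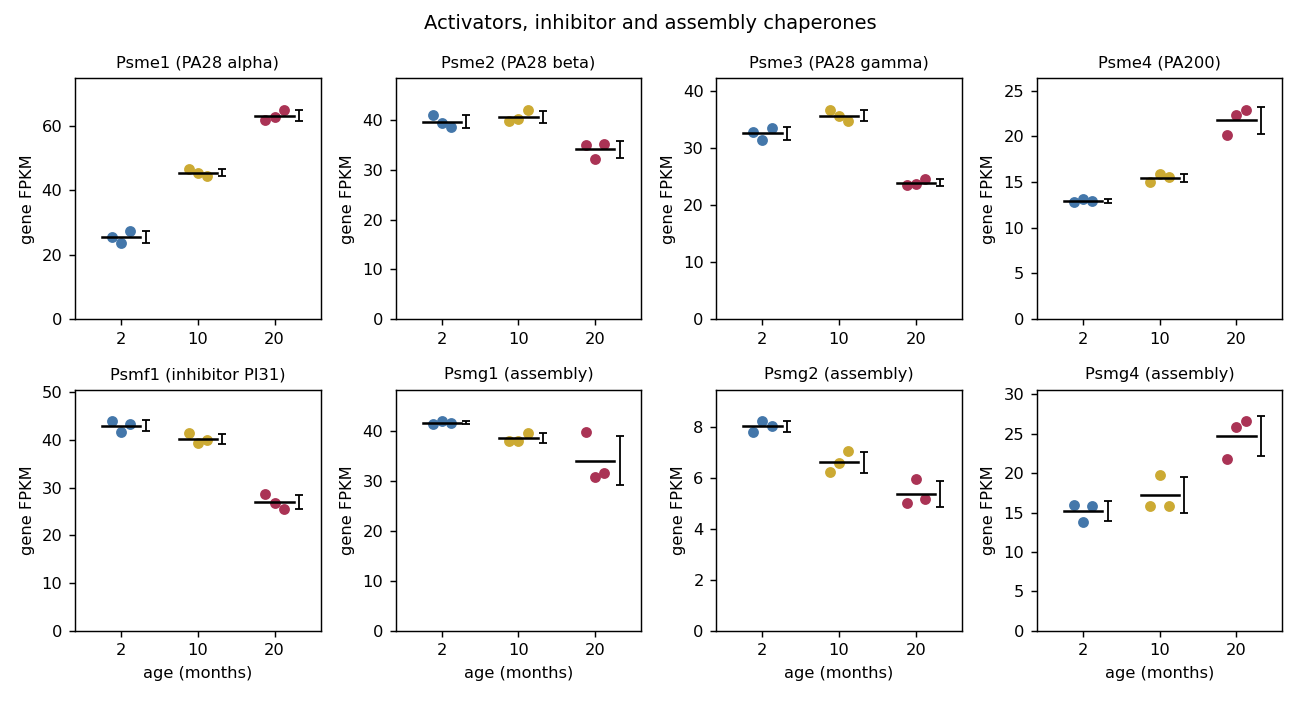
Gene FPKM of the 4 activator genes, the inhibitor gene Psmf1 and 3 assembly chaperone genes by age, with a point per library, a line at the mean and a bar of 1 SD (n = 3). Psme1 and Psme4 climb over the 3 ages, Psme3 and Psmf1 are lowest at 20 months, and Psmg4 is highest there while Psmg2 is lowest.

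Levels within the standard core, which needs each subunit in equal number, differed widely between genes on the scale of transcript-summed FPKM, and the order was much the same at every age. No gene named Psma3 was among the 50 matched, and Psma3l was counted in its place. Psma3l was the lowest of the 14 at every age, followed by Psmb5, Psma5 and Psmb6. The highest was Psma6, at 134.5 FPKM at 2 months, 131 FPKM at 10 months and 150.2 FPKM at 20 months. The highest subunit was 8.21, 7.38 and 7.87 times the lowest at 2, 10 and 20 months. That span rests on Psma3l, and the next lowest, Psmb5, averaged 32.7, 30.8 and 22.2 FPKM at these ages. Summed over the 14, the core held 1039 ± 2.87 FPKM at 2 months, 999.7 ± 3.67 FPKM at 10 months and 989 ± 53.4 FPKM at 20 months (SD, n = 3 each). The 3 immunoproteasome subunits summed to 8.15 ± 0.436, 15.0 ± 0.473 and 16.8 ± 1.73 FPKM, which at each age was below the lowest single standard subunit. All 46 genes together, without the 2 interacting proteins, held 2072, 2035 and 1951 FPKM, or 0.435, 0.421 and 0.4005% of the summed FPKM of all transcripts. After median-of-ratios scaling the log2 change of this sum at 20 against 2 months was 0.14, against -0.09 as deposited, so that its direction rests on the scaling.

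**Figure D5:**
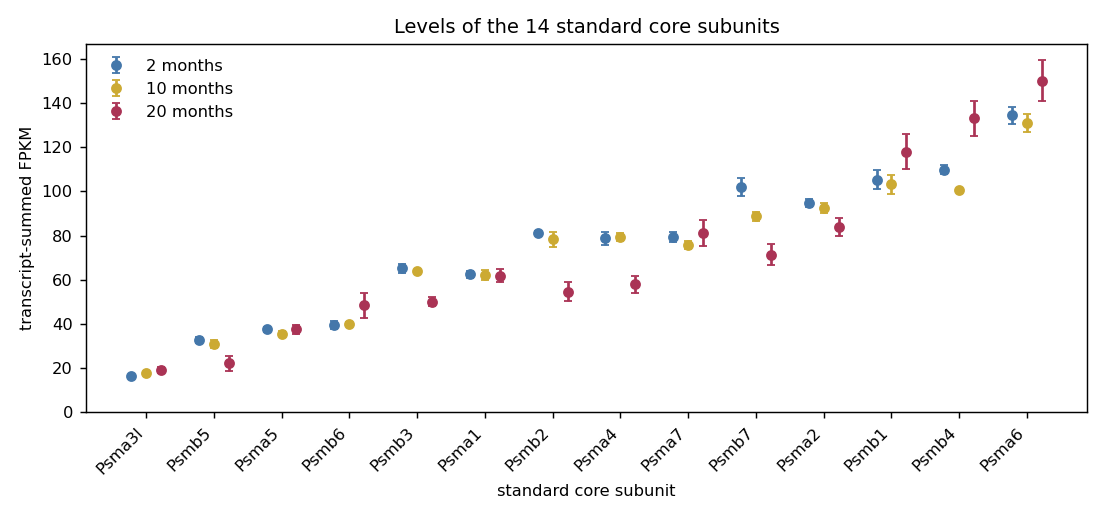
Mean transcript-summed FPKM of the 14 standard core subunits at 2, 10 and 20 months, ordered by their mean over all libraries, with bars of 1 SD (n = 3). Psmb4 and Psma6 are higher at 20 months than before, and Psmb2, Psma4, Psmb7 and Psmb3 are lower, while the extremes of the order stay in place.

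The 7 alpha subunits had log2 changes of -0.07 to 0.10 at 10 against 2 months, with adjusted p of at least 0.158. At 20 against 2 months 2 rose (Psma6 and Psma3l) and 1 fell (Psma4) under both scalings, beside 18.6% and 31.3% of all genes. Psma6 had 120.9, 118 and 125 FPKM at 2 months, 122, 118 and 115 FPKM at 10 months and 145, 134 and 128 FPKM at 20 months. Its 20-month libraries lay above all others, although the call of 0.16 ± 0.05 at 20 against 2 months (adjusted p = 0.0159) was lost without 2-month replicate 2 (adjusted p = 0.0586). Psma4 had 25.8, 25.1 and 24.0 FPKM at 2 months, 25.7, 24.7 and 25.6 FPKM at 10 months and 20.1, 19.4 and 17.7 FPKM at 20 months. It fell by 0.37 ± 0.05 at 20 against 2 months (adjusted p = 0.000183, and -0.15 after scaling with adjusted p = 0.0221). Psma2 had 94.3, 93.0 and 96.5 FPKM at 2 months, 90.9, 91.8 and 95.3 FPKM at 10 months and 87.2, 84.6 and 79.3 FPKM at 20 months. The call of -0.18 at 20 against 2 months (adjusted p = 0.00369) had the opposite sign after scaling, at 0.05 (adjusted p = 0.276). Psma1, Psma5 and Psma7, the remaining alpha subunits, were at -0.01, 0.002 and 0.03 as deposited, none called, and were called higher after scaling, at 0.21, 0.23 and 0.26.

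The beta subunits without an active site split into a rising and a falling pair at 20 months. Psmb4 had 107.5, 110.3 and 112 FPKM at 2 months, 101, 99.9 and 100.5 FPKM at 10 months and 139.6, 135.5 and 124 FPKM at 20 months. The ages did not overlap, and 10 months was the lowest. Psmb4 rose by 0.27 ± 0.04 at 20 against 2 months (adjusted p = 0.000394) and by 0.40 ± 0.04 at 20 against 10 months (adjusted p = 5.28e-05). Psmb1 rose with it, by 0.16 ± 0.05 at 20 against 2 months (adjusted p = 0.0255), a call lost without 2-month replicate 1 or 3 or 20-month replicate 1 (adjusted p of 0.0614 to 0.0894). Psmb2 had 81.9, 81.4 and 80.3 FPKM at 2 months, 74.9, 78.5 and 81.8 FPKM at 10 months and 58.5, 55.2 and 50.1 FPKM at 20 months. It fell by 0.57 ± 0.06 at 20 against 2 months (adjusted p = 2.09e-05) and by 0.52 ± 0.06 at 20 against 10 months (adjusted p = 5.42e-05), and after scaling by 0.34 and 0.25, both called. Psmb3 had 67.4, 63.6 and 64.3 FPKM at 2 months, 63.8, 64.7 and 63.6 FPKM at 10 months and 49.5, 52.3 and 48.3 FPKM at 20 months. Its log2 change at 20 against 2 months was -0.37 ± 0.04 as deposited (adjusted p = 2.72e-05) and -0.15 after scaling (adjusted p = 0.0112). Within libraries, Psmb5 stood at 82.9, 77.4 and 45.9% of Psmb6 at 2, 10 and 20 months, and Psmb7 at 2.58, 2.23 and 1.48 times Psmb6.

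Of the 20 cap genes, 11 were called lower and 0 higher at 20 against 2 months as deposited, with a median of -0.14. Of all genes 49.6% were lower and 18.6% higher, with a median of -0.20, so the share lower was near the background. After scaling 7 cap genes were called higher and 3 lower, beside 31.0% and 31.3% of all genes. The 6 genes of the ATPase ring, which unfolds substrates, had log2 changes of -0.14 to 0.10 at 10 against 2 months, with adjusted p of at least 0.132. At 20 against 2 months 4 of them were called lower as deposited. Psmc1 was the one called lower under both scalings, with 76.0, 74.2 and 76.7 FPKM at 2 months, 70.3, 73.8 and 73.3 FPKM at 10 months and 61.8, 60.3 and 57.5 FPKM at 20 months. Its log2 change at 20 against 2 months was -0.33 ± 0.04 as deposited (adjusted p = 4.32e-05) and -0.11 after scaling (adjusted p = 0.0268). Psmc2 had 74.7, 74.0 and 73.5 FPKM at 2 months, 71.9, 75.7 and 72.9 FPKM at 10 months and 67.8, 67.3 and 65.8 FPKM at 20 months. Its call at 20 against 2 months changed direction with the scaling, at -0.14 as deposited (adjusted p = 0.00242) and 0.08 after scaling (adjusted p = 0.0421). Psmc4 had 28.7, 30.6 and 31.8 FPKM at 2 months, 26.6, 28.6 and 27.5 FPKM at 10 months and 26.1, 23.9 and 22.2 FPKM at 20 months. The change of -0.32 at 20 against 2 months (adjusted p = 0.00135) was -0.10 after scaling (adjusted p = 0.152). Psmc3 was at -0.29 as deposited (adjusted p = 0.00375) and -0.07 after scaling (adjusted p = 0.367), and Psmc5 and Psmc6 were at -0.01 and 0.01 as deposited and were called higher after scaling, at 0.21 and 0.23.

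Of the 14 non-ATPase cap genes, 1 (Psmd14) was called at 10 against 2 months as deposited, beside 30.3% of all genes. After scaling 2 were called, both lower, beside 29.7% of all genes: Psmd14 and Psmd3 (for Psmd3 -0.16, adjusted p = 0.0292). Psmd14, the deubiquitinase of the lid, had 20.4, 18.9 and 19.1 FPKM at 10 months and 23.6, 23.2 and 23.3 FPKM at 2 months. The change of -0.25 ± 0.08 (adjusted p = 0.0418) lost its call without any single library of either age (adjusted p of 0.0615 to 0.119). At 20 against 2 months 7 of the 14 were called lower as deposited, beside 49.6% of all genes. Under both scalings 2 fell, Psmd1 and Psmd11, beside 31.3% of all genes. Psmd1, a large scaffold of the base of the cap, had 44.8, 44.5 and 40.9 FPKM at 2 months, 42.6, 40.5 and 41.3 FPKM at 10 months and 33.9, 32.1 and 29.1 FPKM at 20 months. Its log2 change at 20 against 2 months was -0.44 ± 0.06 (adjusted p = 0.000151) and -0.22 after scaling (adjusted p = 0.00748). Psmd11, a lid subunit that joins cap and core, had 24.2, 23.0 and 22.7 FPKM at 2 months, 22.7, 23.1 and 21.7 FPKM at 10 months and 18.4, 16.5 and 17.3 FPKM at 20 months. It fell by 0.40 ± 0.05 at 20 against 2 months (adjusted p = 9.03e-05, and -0.18 after scaling with adjusted p = 0.00614). Psmd7, the lid partner of Psmd14, had 53.4, 56.9 and 55.1 FPKM at 2 months, 56.0, 53.4 and 53.9 FPKM at 10 months and 45.4, 46.4 and 46.5 FPKM at 20 months. After scaling its change at 20 against 2 months was -0.03 (adjusted p = 0.518), against -0.25 as deposited. Psmd2, which docks ubiquitin shuttles and was the highest of the class, had 61.6, 60.2 and 62.5 FPKM at 2 months, 57.7, 57.9 and 59.9 FPKM at 10 months and 57.5, 61.9 and 56.9 FPKM at 20 months. Its 20-month libraries overlapped both younger ages, and at 20 against 2 months it was called only after scaling, at 0.16 (adjusted p = 0.00996), beside -0.06 as deposited (adjusted p = 0.174). Psmd3, Psmd6 and Psmd8, all lid subunits, were called lower as deposited, at -0.33, -0.12 and -0.13, and were at -0.11, 0.10 and 0.09 after scaling, where Psmd8 was called higher (adjusted p = 0.0327). Psmd4, a ubiquitin receptor of the cap, and the lid subunits Psmd12 and Psmd13 were not called as deposited, and after scaling Psmd4 and Psmd12 were called higher, at 0.27 and 0.23. Psmd5, Psmd9 and Psmd10, which are chaperones of base assembly rather than subunits of the finished cap, averaged 16.3, 13.2 and 6.98 FPKM at 20 months and 19.4, 14.3 and 6.64 FPKM at 2 months, and none was called at this comparison under both scalings. Of the interacting proteins, Psmc3ip was called higher at 20 against 2 months at 0.17 (adjusted p = 0.0484), a call lost without any of 6 single libraries (adjusted p of 0.053 to 0.147). Psme3ip1 was at -0.08 in that comparison (adjusted p = 0.0959).

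Of the tested members, 7 had more than 1 transcript in the isoform table, with 18 transcripts in all, and 8 transcripts of 4 members (Psmb7, Psmb8, Psmd11 and Psme4) could be tested for isoform use by age. With limma 0 were called by the F test, 3 had an unadjusted p under 0.05, and 8.44% of 2771 transcripts were called over all genes. The main transcript of Psmb8, with 6 exons, made up 93.9 ± 2.72, 77.2 ± 9.08 and 90.2 ± 2.27% of the gene's summed FPKM at 2, 10 and 20 months (SD, n = 3 each) (F test adjusted p = 0.139). The longer transcript of Psmd11 made up 78.0 ± 0.733, 79.9 ± 3.80 and 72.7 ± 2.38% (adjusted p = 0.187).

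Of 9 listed genes for subunits and assembly factors outside the Psm names, 7 were tested. At 20 against 2 months 2 were called higher and 2 lower, beside 18.6% and 49.6% of all genes. After scaling 4 were higher and 1 lower, beside 31.0% and 31.3% of all genes. Sem1, the smallest lid subunit, averaged 117 ± 1.44 FPKM at 20 months and 89.9 ± 1.21 FPKM at 2 months, a log2 change of 0.38 (adjusted p = 4.99e-06). Txnl1, a thioredoxin bound to the cap, averaged 50.6 ± 3.50 FPKM at 20 months and 69.0 ± 2.02 FPKM at 2 months. At 10 against 2 months 1 of the 7 was called, beside 30.3% of all genes. It was Ubr4, a ubiquitin ligase linked to the proteasome, with 39.4 ± 0.768 FPKM at 10 months and 29.8 ± 0.438 FPKM at 2 months (0.39, adjusted p = 0.000497).

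Among genes of transcriptional control, 2 of 11 were called higher at 10 against 2 months, beside 19.0% of all genes. At 20 against 2 months 7 were called lower as deposited, beside 49.6% of all genes. After scaling 4 were higher and 3 lower, beside 31.0% and 31.3% of all genes. Nfya, Nfyb and Nfyc encode the subunits of the factor that binds the CCAAT box. Nfya averaged 5.80 ± 0.520 FPKM at 20 months and 10.5 ± 0.311 FPKM at 2 months (-0.76, adjusted p = 1.26e-05). Nfyc averaged 17.2 ± 0.814 FPKM at 20 months and 22.9 ± 0.490 FPKM at 2 months. Nfyb, named after its values were seen, averaged 7.63 ± 0.118 FPKM at 20 months and 7.56 ± 0.471 FPKM at 2 months, with a log2 change of 0.01 as deposited (adjusted p = 0.843) and 0.22 after scaling (adjusted p = 0.00716), and it rose by 0.21 at 10 against 2 months (adjusted p = 0.0171). Keap1, the repressor of Nfe2l2, averaged 8.88 ± 0.847 FPKM at 20 months and 12.7 ± 0.482 FPKM at 2 months, and the falls of Nfya, Nfyc and Keap1 were called under both scalings. Nfe2l1, named after its values were seen because it encodes the main activator of proteasome genes, averaged 57.1 ± 3.01 FPKM at 20 months and 63.9 ± 1.79 FPKM at 2 months, with a log2 change of -0.16 as deposited (adjusted p = 0.00867) and 0.07 after scaling (adjusted p = 0.263).

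Of 12 tested genes of interferon control and peptide loading, 3 were called higher and 2 lower at 10 against 2 months. The shares of all genes were 19.0% and 11.4%. At 20 against 2 months 1 was higher and 9 lower, beside 18.6% and 49.6% of all genes. After scaling 1 was higher and 3 were lower, and 31.3% of all genes were lower. Irf1, an interferon-responsive activator of the immunoproteasome genes, averaged 12.7 ± 0.547 FPKM at 10 months and 10.2 ± 0.106 FPKM at 2 months (0.28, adjusted p = 0.00324), and 7.92 ± 0.414 FPKM at 20 months. Stat2, a factor of type I interferon signalling, averaged 9.71 ± 0.670 FPKM at 20 months and 18.3 ± 0.607 FPKM at 2 months (-0.85, adjusted p = 4.16e-06). Canx, a chaperone of peptide loading, averaged 128 ± 5.11 FPKM at 20 months and 189 ± 2.91 FPKM at 2 months. The gene called higher at 20 against 2 months was Tap2, a subunit of the peptide transporter, which was named after its values were seen. Tap2 averaged 2.36 ± 0.746 FPKM at 20 months and 1.19 ± 0.329 FPKM at 2 months (0.61, adjusted p = 0.00819). Tap1, also named after its values were seen, was at -0.22 in that comparison (adjusted p = 0.0681) and -0.06 after scaling (adjusted p = 0.639).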

How the data were processed

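The study sequenced rat nucleus pulposus RNA at 3 ages, and the tables used here hold its 9 libraries without immunoprecipitation. The gene and transcript FPKM values were deposited by the authors. Per the file headers, the transcript table also holds coverage, a signal value deposited by the authors that the headers do not define. It was taken here as the mean number of reads over a base. Per the submitters' processing notes, the tools were StringTie 1.3.4d, HISAT2 2.0.4, edgeR, DESeq2 and cutadapt 1.9, with no roles given, and the sources used here do not name the genome build. FPKM is normalized for depth, so a large shift in a few abundant genes moves all the others, and the table's gene FPKM divides by a fixed gene length, so levels of different genes were compared by transcript-summed FPKM.

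Genes that reached an FPKM of 1 in 3 or more libraries (11708 of 18923) entered limma 3.58.1 (R 4.3.3) as log2(FPKM + 1), with a mean-variance trend, all 3 ages in 1 fit, a contrast for each pair of ages, an F test over the ages, and Benjamini-Hochberg adjustment over all genes tested. Fold changes on this scale understate those of low genes. Sums and motif counts were made in Python 3.11.15 with pandas 2.3.3 and numpy 2.4.6. Scripts were tested on simulated data. Isoform use was tested on log-ratios with a pseudocount of 0.5 for transcripts with 10 to 90% of a gene whose mean FPKM was at least 5. Alternatives were other pseudocounts, filters, scalings and weights, a replicate block and leaving out each library.

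The members and gene lists were chosen with earlier results of these data known. Values in every library are given for the 3 immunoproteasome subunits and their 3 counterparts, and in each other class for up to 3 tested members with the smallest adjusted p of the F test and for the one with the highest mean FPKM. Of each related list up to 3 genes with the smallest adjusted p of the F test are named, and other members are given by name with means or changes where a small count is spelled out. Of the genes this rule names, 1 is not reported here.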

Additional observations from a re-analysis of the deposited data

How the results depend on the processing

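The counts of members called at 20 months depend on the scaling. At 20 against 2 months the 11 higher members became 22 with median-of-ratios scaling and 17 with quantile normalization, and the 22 lower ones 11 and 14. At 20 against 10 months the 8 higher became 25 and 19, and the 21 lower 4 and 11. At 10 against 2 months the 5 higher became 3 with a filter of FPKM 5, which removed Psmb8 and Psmb9 from the test, and 8 with array weights. The 3 lower became 6 with median-of-ratios scaling, 5 with quantile normalization, 5 with the same summed FPKM, 6 with array weights and 7 with only these ages in the fit, and spanned 0 to 6 when 1 library was left out. Among the 26 members given by library, changes called under at least 1 of the scalings reversed after median-of-ratios scaling for Psma2 (0.0512 at 20 against 2 months, 0.12 at 20 against 10 months), Psmc2 (0.082 and 0.13), Psmd2 (0.16 at 20 against 2 months), Psmc4 (0.0683 at 20 against 10 months) and Psmd7 (0.0283 in the same comparison), and after quantile normalization for Psmc2 (0.02 and 0.0062). Other members also reversed after median-of-ratios scaling, such as Psmd8 (0.09 at 20 against 2 months) and Psme3ip1 (0.14 at 20 against 10 months). Of 53 calls of the 26 named members, 32 held under every alternative run, and of 70 member calls 12 were lost without at least 1 library. With a replicate block the counts were 4 higher and 3 lower, 10 and 22, and 8 and 20 in the 3 comparisons. Same-numbered libraries did not deviate together (correlations of -0.04 to 0.049). Read coverage limits Psmb8, Psmb9 and Psmb10.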

Other observations

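Genes that deliver ubiquitin to the proteasome are given as values. Of 7 tested entries of this list, 2 were called higher and 3 lower at 20 against 2 months, beside 18.6% and 49.6% of all genes. After scaling 4 were higher and 2 lower, beside 31.0% and 31.3% of all genes. Summed over the list, the entries averaged 3578 FPKM at 2 months and 4154 FPKM at 20 months. Ubb, which encodes polyubiquitin, averaged 808 ± 19.2 FPKM at 20 months and 1128 ± 13.1 FPKM at 2 months (a log2 change of -0.48, limma adjusted p = 2.61e-06). Uba1, the main ubiquitin-activating enzyme, averaged 22.6 ± 0.456 FPKM at 20 months and 34.1 ± 0.303 FPKM at 2 months (-0.58, adjusted p = 9.57e-07). Both calls had the same direction after median-of-ratios scaling, at -0.25 and -0.36.

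Of 11 tested deubiquitinases and shuttle factors, 7 were called lower at 20 against 2 months as deposited, beside 49.6% of all genes. After scaling 2 were higher and 2 lower, beside 31.0% and 31.3% of all genes. Ddi2, the protease that activates Nfe2l1, averaged 12.5 ± 0.349 FPKM at 20 months and 16.9 ± 0.454 FPKM at 2 months (-0.40, adjusted p = 2e-05, and -0.19 after scaling with adjusted p = 0.00249). Ube3c, a ubiquitin ligase bound to the proteasome, averaged 10.7 ± 0.307 FPKM at 20 months and 13.7 ± 0.412 FPKM at 2 months (-0.33, and -0.12 after scaling). Rad23b, a shuttle factor, was at -0.24 as deposited (adjusted p = 0.000442) and -0.01 after scaling (adjusted p = 0.787).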
